A study of Mus musculus with 22 samples.

Results

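Phenylalanine and tyrosine degradation was followed through 7 genes: Pcbd1, Qdpr, Tat, Hpd, Hgd, Gstz1 and Fah. They were taken by symbol from a table of 24475 genes measured in mouse liver, and all 7 were found. Their values are RPKM, reads per kilobase of a gene's transcript relative to all reads of its library. The 22 liver libraries were from 2 genotypes, wild type (WT) and a knockout of the glucagon gene (Gcg-/-). In each genotype 3 libraries were from uninfused liver, 4 from liver after glucagon infusion at 30 µg/d and 4 at 150 µg/d. The labels state no age, sex or strain, no route or length of the infusion, and no vehicle for uninfused mice. Nor do they name a separate mouse for each library, so the spread behind the p-values may be technical.

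Phenylalanine is hydroxylated to tyrosine in a reaction that consumes tetrahydrobiopterin, and the liver is the main site of this step. Pcbd1, a dehydratase, and Qdpr, dihydropteridine reductase, return the oxidised cofactor to tetrahydrobiopterin. Tat, tyrosine aminotransferase, moves the amino group of tyrosine to 2-oxoglutarate and is the classic liver enzyme induced by glucocorticoids and by cAMP, the second messenger of glucagon. Hpd, a dioxygenase, then makes homogentisate, and Hgd opens its ring. Gstz1, maleylacetoacetate isomerase, and Fah, fumarylacetoacetase, complete the route to fumarate, which can feed glucose synthesis, and acetoacetate, a ketone body. Inherited loss of Hgd causes alkaptonuria, and loss of Fah, Tat or Hpd causes tyrosinaemias.

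The glucagon gene itself checks no label here. Gcg, a gene of pancreas and gut, was listed at 0 in 22 of 22 libraries. The glucagon receptor gene, Gcgr, was present throughout, at 68.5 to 93.9 RPKM. Estimated depth was 11.2 to 17.7 M reads per library. Hepatocyte markers were high (Alb at 17410 to 53680 RPKM), whereas the kidney tubule markers Slc5a2, Slc12a1 and Aqp2 were at 0 in 22 of 22 libraries. Cpa1 and Ins2 of pancreas and Lep of fat were likewise at 0 in 22 of 22. Other markers on these lists were not. Cela1 of the pancreas list was at 3.01 to 17.2 RPKM. Slc34a1 and Umod of kidney were at 0 in 20 and 18 libraries and Prss2 of pancreas in 20. Adipoq and Plin1 of fat were at 0 in 14 and 17 libraries. None of these last genes exceeded 0.288 RPKM. Libraries 4 (Gcg-/-, uninfused) and 13 (Gcg-/-, 30 µg/d) stood apart in genes that differ between male and female liver. Their Cyp2b9 was 111 and 42.9 RPKM and that of the other libraries at most 1.61. Their Mup20, at 855 and 2367 RPKM, was the lowest. Calls of members that rest on these libraries are given without them as well. Group means and their order, values of the interaction terms, correlations and ranks of likeness are given only with them.

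The stretches of 250 bases that precede the annotated starts of 4 of the genes are shown, because Tat, Qdpr and Hgd carry the differences that passed a test and Gstz1, at the first of its 2 annotated starts, holds the only motif match. They are from RefSeq on the mouse build GRCm38.p6 and read 5′ to 3′ on the strand of the gene. Capitals mark a match to the core of the cAMP response element.
Tat, chr8:109990186-109990435, plus strand: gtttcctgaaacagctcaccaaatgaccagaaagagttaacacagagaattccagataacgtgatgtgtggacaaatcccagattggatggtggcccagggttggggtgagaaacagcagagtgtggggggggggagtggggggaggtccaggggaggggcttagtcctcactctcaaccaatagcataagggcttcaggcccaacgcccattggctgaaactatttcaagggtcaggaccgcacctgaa
Qdpr, chr5:45450230-45450479, minus strand: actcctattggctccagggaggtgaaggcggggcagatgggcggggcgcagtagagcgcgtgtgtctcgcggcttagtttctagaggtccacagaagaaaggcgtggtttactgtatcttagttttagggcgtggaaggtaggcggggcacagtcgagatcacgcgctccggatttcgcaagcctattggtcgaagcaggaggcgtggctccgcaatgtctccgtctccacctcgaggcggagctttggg
Hgd, chr16:37579903-37580152, plus strand: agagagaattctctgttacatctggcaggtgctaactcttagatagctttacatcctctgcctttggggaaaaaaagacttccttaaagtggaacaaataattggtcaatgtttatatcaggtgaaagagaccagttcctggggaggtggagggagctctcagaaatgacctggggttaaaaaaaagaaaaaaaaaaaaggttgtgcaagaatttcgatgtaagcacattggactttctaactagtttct
Gstz1, chr12:87146915-87147164, plus strand: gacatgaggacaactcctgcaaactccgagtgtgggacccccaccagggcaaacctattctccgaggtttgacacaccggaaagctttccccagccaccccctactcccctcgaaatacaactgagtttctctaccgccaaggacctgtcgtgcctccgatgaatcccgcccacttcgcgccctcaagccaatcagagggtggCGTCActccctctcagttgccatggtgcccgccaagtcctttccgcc
Promoters of all 7 genes were searched on both strands for 4 motifs. The full cAMP response element, TGACGTCA, was in none of these windows, and 1.55% of 32851 mouse promoters hold it. Its core TGACG, which lies within the full element, was found once, as CGTCA in the Gstz1 window, 47 bases before the start, against 17.8% of promoters. The glucocorticoid receptor half-site TGTTCT (16.1% of promoters) and the C/EBP palindrome TTGCGCAA (0.16%) were not in these windows. These letters describe the windows only. The Tat and Hgd windows lie within the RefSeq spans of their genes, which run from 109986078 to 109999804 on chromosome 8 and from 37579742 to 37632026 on chromosome 16.

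All 7 genes were among the more abundant transcripts of this liver table. Averaged over the 22 libraries, Hpd was highest at 1096 RPKM, followed by Tat at 683, Fah at 385, Gstz1 at 346, Hgd at 304, Qdpr at 202 and Pcbd1 at 155 RPKM. By mean RPKM these levels ranked from place 74 (Hpd) to place 468 (Pcbd1) among the 24475 genes. The members differed more in how far they varied. Between the lowest and the highest of the 6 group means, Tat spanned 4.54-fold, Hgd 2.24-fold, Qdpr 1.78-fold and Hpd 1.65-fold. The last steps and the dehydratase were flatter, with 1.24-fold for Gstz1, 1.198-fold for Fah and 1.10-fold for Pcbd1. In 6 of the 7, all but Pcbd1, the uninfused Gcg-/- group had the lowest mean.

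**Figure D1:**
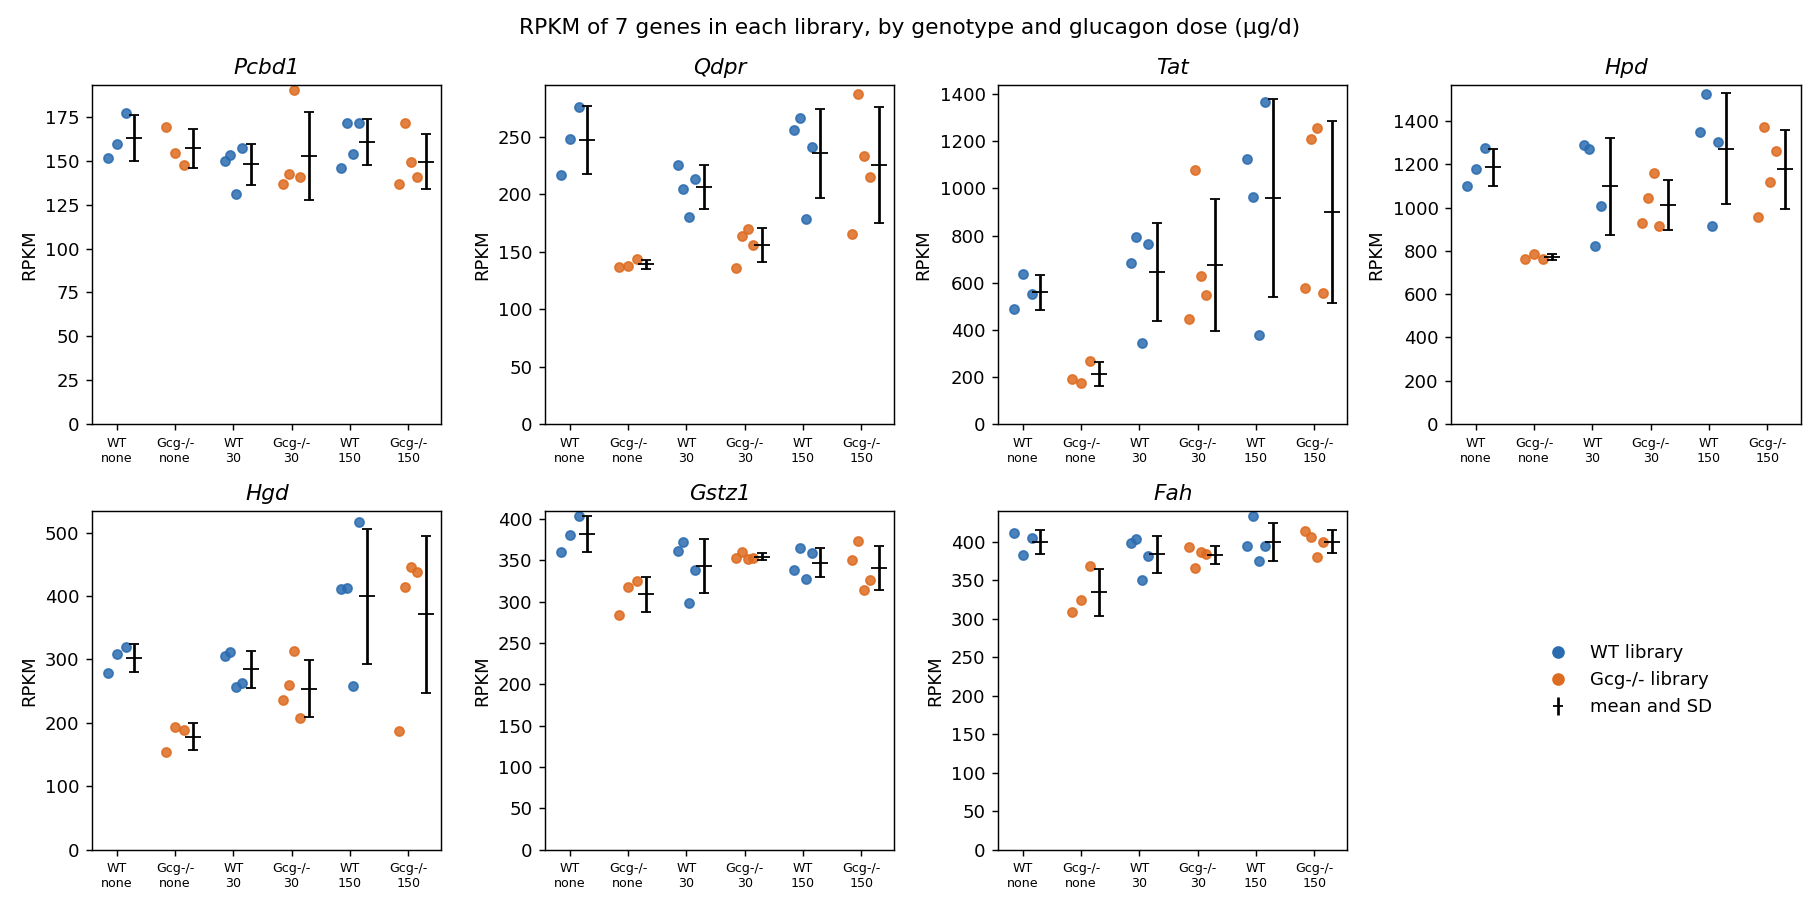
RPKM (vertical axis, from 0) of each of the 7 genes in every library, by genotype and glucagon dose in µg/d (horizontal axis). Points are single libraries, WT in blue and Gcg-/- in orange, and the black bar is the group mean with its SD. Tat of the 3 uninfused Gcg-/- libraries sits between 175 and 269 RPKM, below every other library, while Pcbd1 stays between 131 and 190 RPKM throughout.

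Whether loss of glucagon alters the pathway without infusion was asked by comparing the 3 Gcg-/- with the 3 WT libraries. Qdpr fell, and 5 other members had lower values in every Gcg-/- library than in any WT library without passing the test. Pcbd1 alone overlapped between the genotypes. Differences are on the log2(RPKM + 1) scale, fitted with limma over the 11590 genes with a mean of at least 0.5 RPKM. A gene was called at a Benjamini-Hochberg adjusted p under 0.05.

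Qdpr, the reductase, was at 216.8, 248.2 and 276.0 RPKM in the uninfused WT libraries and at 136.3, 137.1 and 143.2 RPKM in the uninfused Gcg-/- libraries. The groups lay well apart, and the Gcg-/- libraries were close together, with a coefficient of variation of 2.73%. Qdpr fell by 0.82 on the log2 scale (SE 0.17, limma adjusted p = 0.0238), to 56.2% of the WT mean. Pcbd1, the other enzyme of cofactor recycling, was at 163 ± 13.1 RPKM in WT and 157 ± 11.04 RPKM in Gcg-/- liver (SD, n = 3 each), a log2 difference of -0.05 with a 95% interval from -0.30 to 0.20.

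Tat, the entry step from tyrosine, was at 489.2, 638.2 and 550.8 RPKM in WT and at 189.3, 175.1 and 268.9 RPKM in Gcg-/- libraries. Its groups did not overlap and its mean was 37.7% of that of WT, the lowest share of the 7. The log2 difference was -1.42 (SE 0.44, limma adjusted p = 0.102), which missed the threshold. Hgd was at 278.4, 308.7 and 320.3 RPKM in WT and at 154.1, 193.2 and 188.2 RPKM in Gcg-/- libraries, again with no overlap. Its log2 difference was -0.76 (SE 0.27, limma adjusted p = 0.141).

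Hpd was at 1103, 1180 and 1276 RPKM in WT and at 764, 786 and 763 RPKM in Gcg-/- libraries, a log2 difference of -0.62 (SE 0.18, limma adjusted p = 0.0917). Its Gcg-/- values differed among themselves by only 1.03-fold. For the last 2 enzymes the gap was narrower. Gstz1 was at 382 ± 22.1 and 309 ± 21.6 RPKM, and Fah at 400 ± 15.4 and 334 ± 30.9 RPKM (SD, n = 3 each), with limma adjusted p-values of 0.101 and 0.119.

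In all, 1 of 7 members was called in this comparison, against 1.54% of the 11590 genes tested. The ranges did not overlap for 6 of 7 members and for 24.8% of all genes tested. The median log2 difference of the members was -0.62 and that of all genes 0.01. Without library 4 the Qdpr difference was -0.81 and no longer called (limma adjusted p = 0.102). The call also ended without library 2 (0.0739), 3 (0.132) or 5 (0.0566), while the difference stayed between -0.91 and -0.74. With limma's array weights 6 members were called, all but Pcbd1, where calls over all genes rose from 179 to 945. With only these 2 groups in the fit Qdpr, Tat and Hgd were called, a count not set against all genes here.

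**Figure D2:**
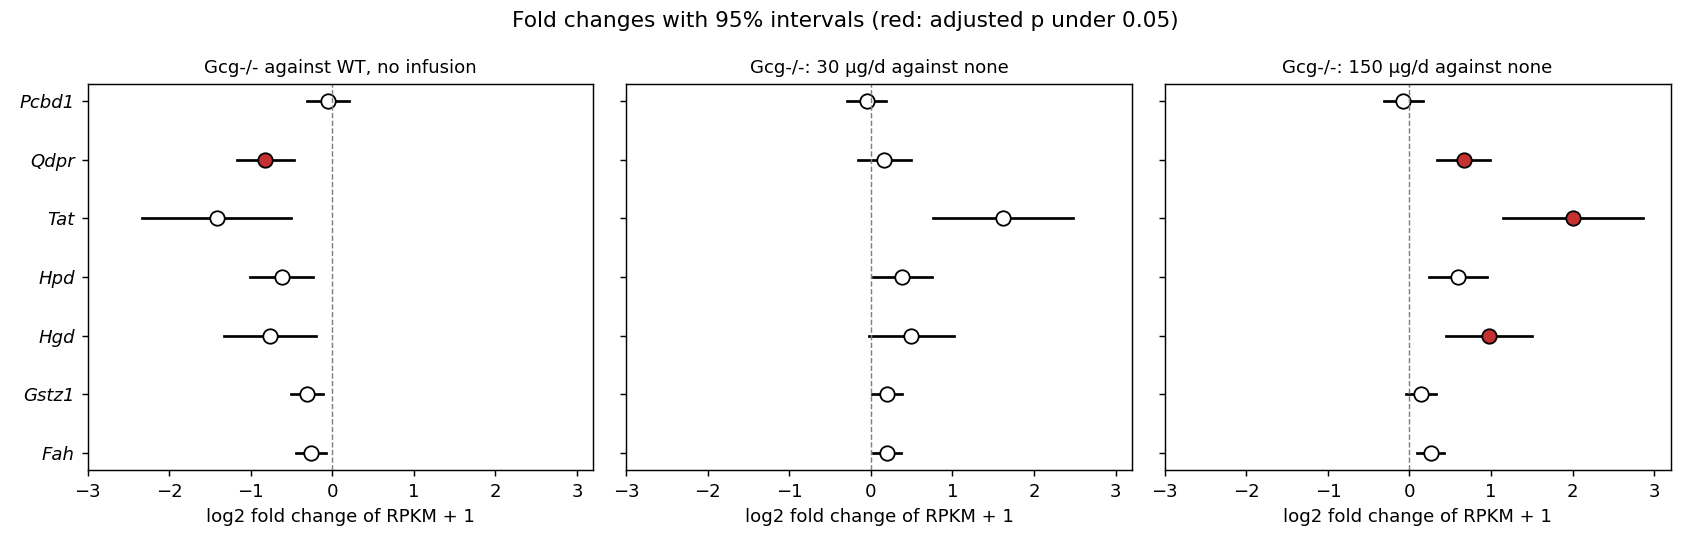
Log2 fold change of RPKM + 1 (horizontal axis) for each of the 7 genes in pathway order, with limma's 95% interval as a line. Panels show Gcg-/- against WT without infusion and, in Gcg-/- liver, 30 or 150 µg/d glucagon against none. Red points passed an adjusted p of 0.05: Qdpr at -0.82 on the left, and Qdpr at 0.67, Tat at 2.0 and Hgd at 0.98 on the right.

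Summed markers of several other liver cell types differed in this comparison, and only endothelial genes among them were called. The summed RPKM of 9 endothelial markers was 79.7 to 90.6 in uninfused WT and 113 to 117 in uninfused Gcg-/- libraries, and 5 of the 9 rose (Pecam1, Stab2, Lyve1, Cdh5 and Tek). Those 5 calls each ended when single libraries were left out: 1, 2, 3, 4 or 5 for Pecam1 and Stab2, 1, 2, 3 or 4 for Lyve1, 2, 3, 4 or 5 for Cdh5 and any of the 6 for Tek (limma adjusted p up to 0.216). The log2 difference of Lyve1 ranged from 0.67, without library 4, to 1.25 among these fits, against 1.03 with all libraries. Summed Kupffer cell markers were 135 to 179 and 220 to 226 RPKM, and summed stellate cell and fibroblast markers 89.0 to 101 and 123 to 126 RPKM, with 0 of 9 called in either list. By mean over all libraries, Dcn was the largest part of the stellate cell and fibroblast sum, at 73.51 RPKM, and Rgs5 followed at 9.735 RPKM. Summed cholangiocyte markers were 16.4 to 32.8 RPKM in WT and 60.3 to 177 RPKM in Gcg-/- libraries, with 0 of 3 tested genes called. Most of that sum was Spp1, at 19.8 ± 9.42 and 118 ± 58.1 RPKM (SD, n = 3 each, limma adjusted p = 0.0626), whereas Krt19, Krt7, Epcam, Sox9 and Cftr stayed under 1.85 RPKM in every library. None of the 8 hepatocyte markers was called, at summed levels of 48830 to 53300 in WT and 51210 to 77740 in Gcg-/-. In bulk liver, fewer cells of a type and less RNA per cell cannot be told apart. The part of these markers in the lower values of the members was not tested.

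Whether infused glucagon moves the pathway in liver that lacks its own was asked at each dose. With 150 µg/d, Tat, Qdpr and Hgd rose against uninfused Gcg-/- liver, to 4.26, 1.62 and 2.08 times its mean. Hpd and Fah lay above it in every library without passing the test, and Gstz1 and Pcbd1 overlapped with it. This comparison and the one above share the uninfused Gcg-/- libraries, so their directions are not independent.

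Tat was at 577.1, 1208.9, 1256.0 and 553.9 RPKM in the libraries with 150 µg/d. All 4 exceeded the highest uninfused Gcg-/- library, but they fell into a lower and a higher pair. Tat rose by 2.0 on the log2 scale (SE 0.41, limma adjusted p = 0.0161). The call ended without library 4 (limma adjusted p = 0.0725), 5 (0.0573) or 21 (0.0511), with differences between 1.81 and 2.20.

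Qdpr was at 165.7, 287.4, 233.0 and 214.5 RPKM, all above the uninfused Gcg-/- libraries, and rose by 0.67 (SE 0.16, limma adjusted p = 0.0297). Its call ended without library 4 (limma adjusted p = 0.103), 5 (0.078), 20 (0.072), 21 (0.079) or 22 (0.0689). The difference ranged from 0.54 to 0.80 among these fits and those without 6 or 19.

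Hgd was at 186.9, 414.5, 445.3 and 437.9 RPKM. Library 19, the first of these, lay inside the uninfused range, and the other 3 lay far above it. Hgd rose by 0.98 (SE 0.25, limma adjusted p = 0.0413). Without library 19 the rise was 1.28, and leaving out any other library of these groups ended the call, with limma adjusted p-values from 0.0621 to 0.169.

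Hpd was at 955, 1374, 1119 and 1261 RPKM, a log2 difference of 0.60 (SE 0.17, limma adjusted p = 0.0707). Fah was at 400 ± 14.5 RPKM against 334 ± 30.9 (SD, n = 4 and n = 3), with a log2 difference of 0.26 and a limma adjusted p of 0.0844. For Gstz1 the difference was 0.14 with a 95% interval from -0.04 to 0.32 (0.083 without library 4), and for Pcbd1 -0.07 with an interval from -0.31 to 0.16.

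Altogether 3 of 7 members were called at 150 µg/d, against 2.72% of the genes tested. Ranges did not overlap for 4 of 7 members and for 13.5% of all genes. The median difference was 0.60 for the members and -0.04 for all genes. Without libraries 4 and 13 no member was called (Qdpr 0.65, Tat 1.94 and Hgd 0.88, with limma adjusted p-values of 0.0928, 0.0659 and 0.148). With only these groups in the fit none was called either. Median-of-ratios scaling gave 5, Hpd and Fah being added, with 349 of all genes called against 315. Among endothelial markers 3 of 9 fell (Pecam1, Cdh5 and Tek) and the sum was 84.8 to 104 RPKM. The Tek call held without each library, that of Pecam1 ended without 4, 5, 6, 20 or 22 and that of Cdh5 without 4, 5, 20, 21 or 22 (limma adjusted p up to 0.122). The part of these markers was not tested here either.

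At 30 µg/d none of the 7 members was called in Gcg-/- liver, where 0.0863% of the genes tested were. Of the 7, 4 passed an unadjusted p of 0.05, as did 1174 of 11590 genes. Tat had the widest gap, with 446.0, 1077.2, 627.8 and 548.7 RPKM, every library above the uninfused maximum of 268.9. Its log2 difference was 1.62 (SE 0.41, limma adjusted p = 0.155). Hpd (0.39), Hgd (0.50) and Gstz1 (0.20) likewise had no overlap with the uninfused libraries. Such a gap was seen in 4 of 7 members and in 8.76% of all genes. Without libraries 4 and 13 the differences were 1.56 for Tat, 0.31 for Hpd, 0.29 for Hgd and 0.145 for Gstz1, and again no member was called.

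Qdpr stayed near its uninfused level at this dose. Its libraries read 135.6, 163.2, 170.0 and 155.6 RPKM, which overlapped with uninfused Gcg-/- liver, a log2 difference of 0.16 with a 95% interval from -0.16 to 0.49. Against uninfused WT liver it was lower by a log2 difference of -0.66 (SE 0.16, limma adjusted p = 0.0449). It was the 1 member of 7 called there, against 1.08% of the genes tested, and that call ended when any 1 of the 7 libraries was left out. Without libraries 4 and 13 together 1 member was called. Against WT at 30 µg/d its ranges were also apart (180.0 to 225.3 RPKM in WT), but the difference of -0.40 was not called (limma adjusted p = 0.265).

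The 7 genes came near the uninfused WT level to different extents, given here as the Gcg-/- group mean in percent of the uninfused WT mean. Tat went from 37.7% without infusion to 121% at 30 and 161% at 150 µg/d. Hgd went from 59.0% to 84.0% and 123%, and Hpd from 65.02% to 85.3% and 99.2%. Qdpr went from 56.2% to 63.2% and 91.2%. Fah stood at 83.6%, 95.7% and 100.1%, Gstz1 at 80.9%, 92.9% and 89.4%, and Pcbd1 at 96.5%, 93.8% and 91.9%. No member was called between 150 µg/d in Gcg-/- and uninfused WT liver, where 0.198% of the genes tested were. Nor was any called between the doses in Gcg-/- liver (0.544% of genes), where Qdpr came closest at 0.50 (SE 0.14, limma adjusted p = 0.123).

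**Figure D3:**
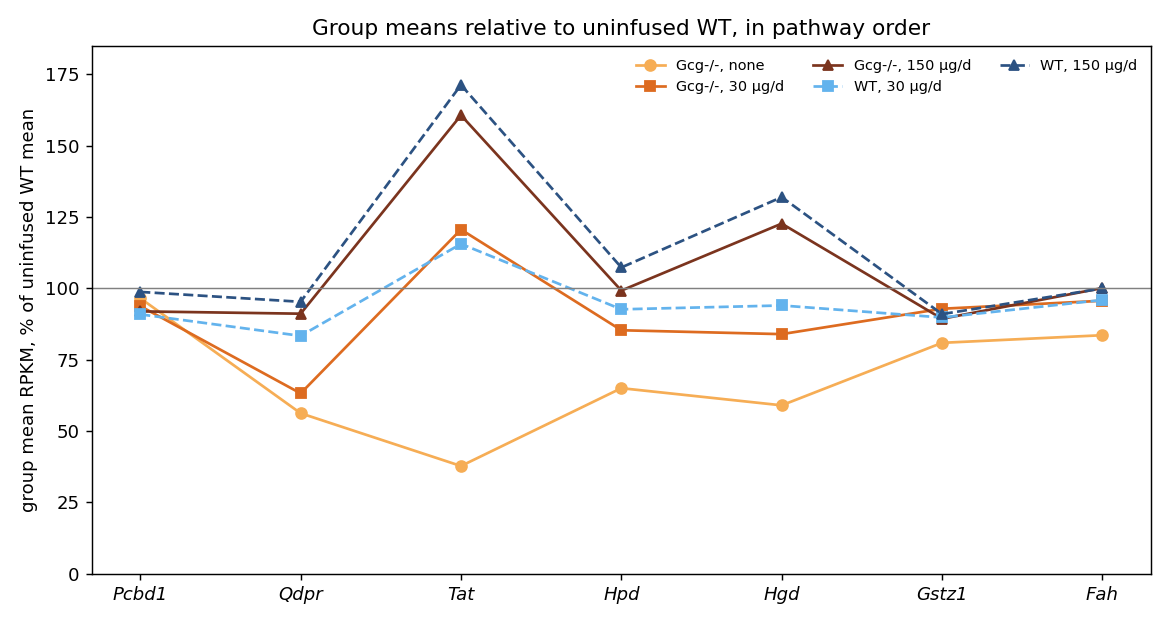
Group mean RPKM in percent of the uninfused WT mean (vertical axis, from 0) for the 7 genes in pathway order (horizontal axis), with solid lines for Gcg-/- and dashed lines for WT groups. Uninfused Gcg-/- liver runs lowest from Qdpr to Fah, with its minimum of 37.7% at Tat. Tat at 150 µg/d stands at 161% in Gcg-/- and 171% in WT.

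In WT liver no member was called at either dose. At 30 µg/d 0% of the genes tested were called with limma (0 of 11590, and 657 at an unadjusted p under 0.05), and at 150 µg/d 0.293%. Tat read 685.0, 794.8, 343.1 and 763.6 RPKM at 30 µg/d, with 3 libraries above the uninfused WT range and library 9 below it. With 150 µg/d it read 1124, 966, 379 and 1365 RPKM, again with 3 libraries above that range and 1, library 17, below it. The log2 difference of Tat at 150 µg/d was 0.64 with a 95% interval from -0.22 to 1.495 (limma adjusted p = 0.557). It was 1.03 without library 17 and 0.42 without library 18, and not called in either case (limma adjusted p = 0.235 and 0.783). Hgd at that dose read 410.6, 412.6, 257.6 and 516.4 RPKM, a difference of 0.36 with an interval from -0.16 to 0.88, and library 17 was again the low one. The Hgd difference was 0.56 without library 17 and 0.22 without library 18, likewise not called (limma adjusted p = 0.33 and 0.821). Between the doses in WT liver no member was called, against 0.00863% of genes.

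The genotypes were also compared under infusion, and no member was called at 30 µg/d (0.328% of genes tested) or at 150 µg/d (0.0259%). The group means at 150 µg/d of the 7 genes in Gcg-/- liver were between 0.925 and 1.001 times those of WT. The Tat difference there was -0.05, with a 95% interval from -0.85 to 0.74. Whether the response to glucagon differed with genotype was tested by interaction terms. No member was called at 30 µg/d, where 0.00863% of the genes tested were, or at 150 µg/d, where 0% were (0 of 11590 with limma, and 1187 at an unadjusted p under 0.05). The term was positive for 7 of 7 members at 30 µg/d and for 6 of 7 at 150 µg/d, with Tat at 1.47 (SE 0.58) and 1.37 (SE 0.58). Its median was 0.42 and 0.52 for the members and -0.02 and -0.01 for all genes. Both terms hold the same uninfused groups. Their signs are therefore not independent of each other or of the low uninfused Gcg-/- values given above. For Qdpr it was 0.74 (SE 0.22) at 150 µg/d (limma adjusted p = 0.262).

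Ordered by group mean, most neighbouring groups overlapped. For Tat the single gap lay between uninfused Gcg-/- (211 RPKM) and uninfused WT (559 RPKM), and the 5 groups from there to WT at 150 µg/d (959 RPKM) ran into each other. For Hpd and Hgd it lay between uninfused Gcg-/- and Gcg-/- at 30 µg/d, at 771 and 1012 RPKM for Hpd and 179 and 254 RPKM for Hgd. For Qdpr it lay 1 place higher, between Gcg-/- at 30 µg/d (156 RPKM) and WT at 30 µg/d (206 RPKM). Pcbd1, Gstz1 and Fah had no gap between neighbours.

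Within groups some libraries were low in several members at once. They were picked after the values of all libraries were seen. Library 9 was the lowest of the 4 WT libraries at 30 µg/d for 7 of 7 members, and library 17 the lowest of those at 150 µg/d for 6 of 7. Library 19 was the lowest at 150 µg/d in Gcg-/- liver for 4 of 7. Relative to the group mean on the log2 scale, Tat was at -0.84 in library 9, -1.19 in library 17 and -0.53 in library 19, and Hgd at -0.14, -0.59 and -0.90. The same libraries were low in Got1, the cytosolic aspartate aminotransferase, and in Sds, serine dehydratase. Got1 was at 47.8 RPKM in library 9, 58.8 in 17 and 23.8 in 19, and the lowest of the others in their groups were 65.8, 253 and 189 RPKM. Other genes differed in library 9. Pck1, a gluconeogenic enzyme, was at 983 RPKM there and lower, at 916 RPKM, in library 10. Fh1, fumarate hydratase, was at 102.5 RPKM there and at 97.8 RPKM in libraries 7 and 8. In libraries 17 and 19 both genes were the lowest of their groups. The share of all genes lowest in libraries 9, 17 and 19 was not counted, so a shift of the whole library was not tested.

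**Figure D4:**
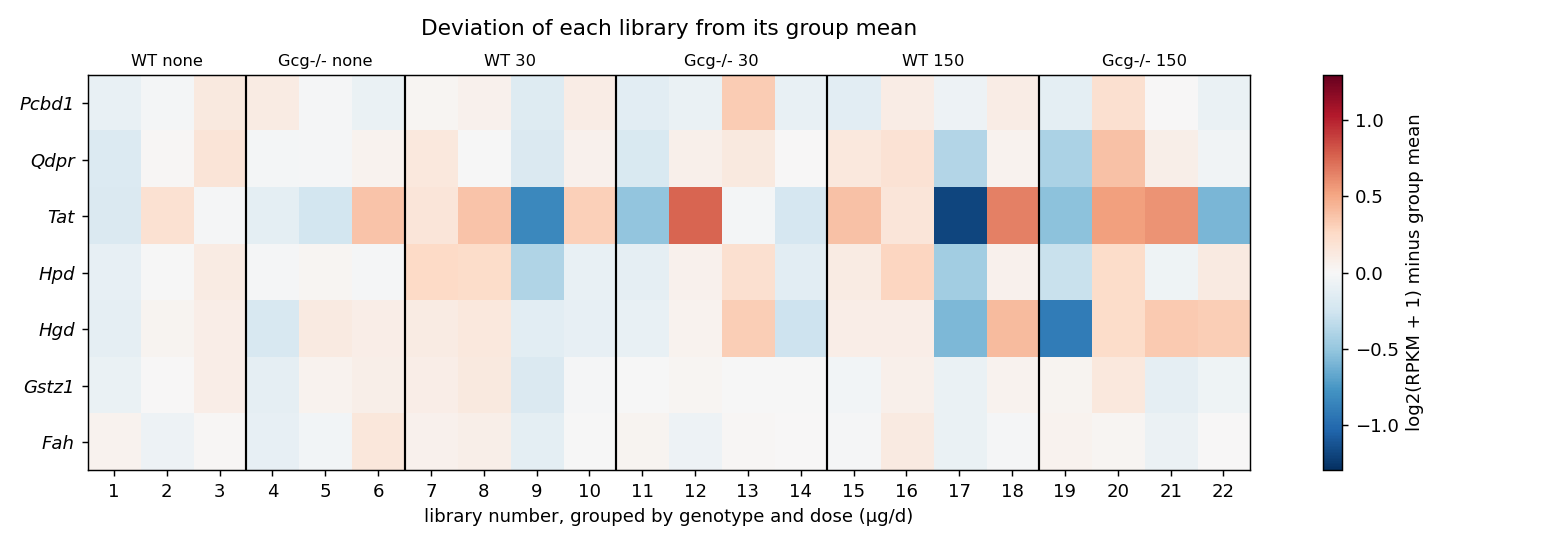
Deviation of log2(RPKM + 1) from the group mean (colour, red above and blue below) for the 7 genes (rows) in the 22 libraries (columns), split by genotype and dose in µg/d. Library 17 has the deepest blue, -1.19 for Tat, and library 9 is blue in all 7 rows.

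Across the 22 libraries the closest pairs were among Qdpr, Tat, Hpd and Hgd. Pearson's r of log2 values was 0.868 for Qdpr and Hpd, 0.861 for Hpd and Hgd, 0.827 for Qdpr and Hgd and 0.806 for Tat and Hpd. Gstz1 and Fah, the last steps, had r = 0.736. Over these values Pcbd1 was weakly related to the other 6, with r from 0.072 to 0.398. Taken on deviations from group means, r was 0.823 for Qdpr and Hpd and 0.722 for Hpd and Hgd. On the same deviations Pcbd1 was closer to each of the other 6, with r from 0.123 (Fah) to 0.588 (Hpd) and 0.609 (Qdpr). These points share groups and library scaling, so the coefficients are descriptions.

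Among 9967 tested genes with a mean of at least 1 RPKM, the pattern most like that of Tat was that of Slc25a51, a mitochondrial NAD carrier (r = 0.891, rho = 0.837). Pck1 (0.857), the gluconeogenic enzyme, Ap3m1 (0.852), Ankrd33b (0.851) and Klf15 (0.842), a transcription factor gene, followed. On deviations from group means Klf15 was the closest of these at 0.911. For Qdpr the nearest were Lhpp (r = 0.959), Gnmt (0.932) and Oat (0.927), ornithine aminotransferase. Lhpp was at 42.7 ± 6.28 RPKM in uninfused WT and 9.72 ± 0.456 in uninfused Gcg-/- liver (SD, n = 3 each). For Hgd they were Cth (0.954), which makes cysteine from cystathionine, Slc25a15 (0.954), the mitochondrial ornithine carrier, and Kynu (0.934), kynureninase.

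Hpd was most like Aldh4a1 (0.924) of proline breakdown, Ttc36 (0.921) and Ivd (0.908) of leucine breakdown. Gstz1 was nearest Mccc2 (0.830), Abat (0.826) and Lect2 (0.805), and Fah nearest Isoc2a (0.879), Tspan31 (0.834) and Pxmp2 (0.819). For Pcbd1 Poldip2 (0.815), Aldh1b1 (0.809) and Kank2 (0.803) came first. Seen from Tat, Hpd held place 14 and Hgd place 18 of 9967, and seen from Qdpr, Hpd held place 26. These are ranks of likeness across the same 22 libraries and carry no test.

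The rest of the pathway was read from gene lists. Of 7 other genes of tetrahydrobiopterin synthesis and recycling, 0 were called in uninfused Gcg-/- against WT liver and 0 at 150 µg/d in Gcg-/- liver. Gch1, the first enzyme of synthesis, was at 48.6 ± 4.57 and 56.5 ± 6.74 RPKM in uninfused WT and Gcg-/- liver (SD, n = 3 each). Of 12 tested genes of other phenylalanine and tyrosine conversions or relatives of the members, 0 were called between the uninfused genotypes and 1 rose at 150 µg/d. That gene was Got1, which went from 14.6 ± 6.02 RPKM (n = 3) in uninfused to 179 ± 108 RPKM (n = 4) in infused Gcg-/- liver (SD; log2 difference 3.14, SE 0.75, limma adjusted p = 0.0308). The call of Got1 ended without library 4, 5, 6, 20, 21 or 22, with an adjusted p of at most 0.1. Th, the enzyme of catecholamine synthesis, was listed at 0 in 22 of 22 libraries, and Il4i1, Hpdl and Tyr were too low to be tested.

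Of 8 genes that act on fumarate or acetoacetate, 0 were called between the uninfused genotypes and 1 rose at 150 µg/d. Fh1, fumarate hydratase, acts on the fumarate that Fah releases. It read 53.9, 54.0 and 61.6 RPKM in the uninfused Gcg-/- libraries and 100.02, 222, 228 and 251 RPKM at 150 µg/d. All 4 infused libraries lay above the uninfused ones, with library 19 the lowest, as it was for Hgd. Fh1 rose by a log2 difference of 1.73 (SE 0.28, limma adjusted p = 0.00373), and its call held without each of the 7 libraries, at 1.59 to 2.03. In WT at 150 µg/d it read 250, 252, 109 and 224 RPKM, with library 17 low, and was not called (1.06, SE 0.28, limma adjusted p = 0.111).

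Among 8 tested carriers of aromatic and other neutral amino acids, 1 rose and 1 fell between the uninfused genotypes. Slc43a2 rose from 2.17 ± 0.208 to 3.60 ± 0.726 RPKM (limma adjusted p = 0.0218) and Slc43a1 fell from 4.22 ± 0.414 to 1.61 ± 0.0906 RPKM (limma adjusted p = 0.0352; SD, n = 3 each). The Slc43a2 call ended without library 1, 2, 3 or 4 (adjusted p up to 0.111), and that of Slc43a1 without any 1 of the 6 (up to 0.154). At 150 µg/d in Gcg-/- liver 2 rose and 1 fell. Slc16a10, a carrier of aromatic amino acids, went from 16.4 ± 3.01 to 28.4 ± 4.21 RPKM (limma adjusted p = 0.0308). Slc38a3, a glutamine carrier, went from 493 ± 50.6 to 834 ± 113 RPKM (limma adjusted p = 0.0364). Slc43a2 fell from 3.60 ± 0.726 to 2.10 ± 0.239 RPKM (limma adjusted p = 0.00466; SD, n = 3 and n = 4), a call that held without each library. That of Slc16a10 ended without 4, 6, 20, 21 or 22 (adjusted p up to 0.156) and that of Slc38a3 without 4, 5, 6, 20, 21 or 22 (up to 0.103).

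Tat is known to respond to cAMP and glucocorticoids, so other genes of these kinds were read beside it. Of 12 cAMP responsive genes, 2 fell between the uninfused genotypes. Tdo2, tryptophan dioxygenase, went from 931 ± 74.1 to 510 ± 102 RPKM (limma adjusted p = 0.0319), and Sds from 131 ± 8.21 to 23.5 ± 11 RPKM (limma adjusted p = 0.0439; SD, n = 3 each). At 150 µg/d in Gcg-/- liver 2 rose, Pck1 by 1.62 (limma adjusted p = 0.0161) and Sds by 2.91 (limma adjusted p = 0.014). Leaving out 5 or 21 ended the Pck1 call (adjusted p up to 0.0653), and 5 or 22 the Sds call (up to 0.063). Between the uninfused genotypes the Tdo2 call ended without library 1, 2, 3, 4 or 5 (up to 0.157) and the Sds call without any 1 of the 6 (up to 0.154).

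Of 8 tested glucocorticoid responsive genes and 12 tested clock genes, 0 were called in either comparison. The median log2 difference of the glucocorticoid list was -0.03 between the uninfused genotypes. A missing call did not mean equal values. Fkbp5 of this list was at 4.52, 6.99 and 5.44 RPKM in uninfused WT libraries. In uninfused Gcg-/- libraries it was higher, at 13.3, 12.6 and 13.4 RPKM, whereas Per1 of the same list overlapped. Of 17 listed liver transcription factors and coactivators, 1 rose between the uninfused genotypes and 0 were called at 150 µg/d in Gcg-/- liver. It was Nr1i2, the pregnane X receptor, at 18.5 ± 0.909 and 27.2 ± 3.64 RPKM (SD, n = 3 each; limma adjusted p = 0.0314). Its call ended without library 1, 2, 3 or 4 (adjusted p up to 0.166). In WT liver at 150 µg/d Nr1i2 rose as well, to 32.4 ± 2.69 RPKM (SD, n = 4; limma adjusted p = 0.00625, and 0.0839 without library 3).

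Reads of overlapping genes could enter some values. Hpd overlaps Psmd9 on the other strand, at 11.6 RPKM on average, and Gstz1 overlaps Pomt2 on the other strand, at 4.30 RPKM. The libraries were strand-specific, but no source used here says whether counting used strand. Both neighbours were far below the members themselves. Other overlapping genes had no values here, so their share is unknown. They were Gm26745 on the same strand as Hpd, and Gm42413 at Qdpr, Gm46559 at Hgd and Gm6566 at Gstz1 on the other strand.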

How the data were processed

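Per the labels' protocols, RNA was extracted from frozen liver with Trizol, mRNA was selected and strand-specific libraries were made. The deposited values are RPKM computed by the authors, with 1 column per library and no pooling. CASAVA 1.8.2, FastQC and the build GRCm38 are named in the submitters' processing notes. The aligner, counting tool and annotation were not given in the sources used here. No columns were identical, and every column matched a sample.

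Genes with a mean of at least 0.5 RPKM (11590) were fitted as log2(RPKM + 1) with limma 3.58.1 in R 4.3.3, with the 6 groups in 1 fit, a mean-variance trend, 16 residual and 3.18 prior degrees of freedom, and Benjamini-Hochberg adjustment over all of them, in 13 contrasts. A fold change on this scale understates the change of low genes. The fit was tested on simulated data. Depth was estimated from steps between low values of 5728 single-transcript genes. Of the 650 to 733 values used per library, 63.9 to 69.6% came out whole within 0.1 of a read. The depth was chosen to make this share highest, so the 20% that chance gives at a fixed depth is too low a comparison. The share was too low for a count test.

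The members and lists were chosen with earlier results of these data known. Named were the 7 members, up to 5 called genes of each list, and the genes of most similar pattern (5 for Tat and 3 for each other member). Libraries 4 and 13, Gcg, Gcgr, Gch1, Fh1 or Got1 values by library, and list genes that were not called, were picked after their values were seen. Coordinates and promoters are from RefSeq on GRCm38.p6, which held promoters of all 7 members. Libraries carry unique running numbers, so nothing pairs them. Alternatives were other pseudocounts (0.1 and 0.5), filters (none, or a mean of 2 RPKM), scalings, weights and sets of libraries.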

Additional observations from a re-analysis of the deposited data

Results flagged for a closer look

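In groups of 4 libraries, a library was picked out where its gap to the nearest other relative to the range of the group exceeded Dixon's 95% critical value. Of 28 combinations of gene and group, 3 were picked out, and chance gives about 5%. Hgd of library 19 (Gcg-/-, 150 µg/d) was at 186.9 RPKM, a gap of 0.881 of the range below the others, which were at 414.5 to 445.3. Pcbd1 of library 13 (Gcg-/-, 30 µg/d) was at 190.1 RPKM, a gap of 0.899 above the others, at 136.9 to 142.3. This library also stood apart in sex-biased genes, and the part of that in its Pcbd1 value was not tested. Gstz1 of library 12 (Gcg-/-, 30 µg/d) was at 360.1 RPKM, a gap of 0.839, although the 4 libraries spanned only 351.8 to 360.1.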

How the results depend on the processing

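No paired analysis was possible because the libraries carry unique running numbers. Counts of members called moved in these cases, and the cause was not tested unless said. Between the uninfused genotypes the count was 1, and it was 6 with array weights, 3 with only the groups compared in the fit, and 0 without libraries 4 and 13, where fewer samples entered. Leaving out single libraries gave 0 to 1. At 150 µg/d in Gcg-/- liver the count was 3, and it was 5 with median-of-ratios scaling, 0 with only the groups compared and 0 without libraries 4 and 13. It was 4 with array weights, Hpd being added, a count not set against all genes here. Without a filter it was 2, with 218 of all genes called against 315. Leaving out single libraries gave 0 to 4, the 4 without library 19. For Gcg-/- at 30 µg/d against uninfused WT the count was 1, and it was 0 without a filter, where more genes were tested, and 0 to 0 without single libraries. Between doses in Gcg-/- liver the count was 0, and it was 2 with array weights and 0 to 2 without single libraries. The counts of 2 were not set against all genes here. The counts of the other contrasts did not move. Pcbd1, near 0 in each case, changed sign between the uninfused genotypes with quantile normalization (0.0025) and among fits without single libraries (-0.104 to 0.0124), and at 30 µg/d in Gcg-/- liver among such fits (-0.162 to 0.0014). Hgd at 150 µg/d was no longer called without a filter (limma adjusted p = 0.0734). Over all genes, 51.4% of calls between the uninfused genotypes were higher, and 40% with median-of-ratios scaling. For 150 µg/d in Gcg-/- liver they were 48.3% and 67%, and the median of all genes moved by less than 0.1. Genes called numbered 179 between the uninfused genotypes, and 945 with array weights and 22 without libraries 4 and 13. For 150 µg/d in Gcg-/- liver they numbered 315, and 1 with only the groups compared and 90 without libraries 4 and 13. Low depth limits the genes near 0, not the members.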

Other observations

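Dnajc12, a co-chaperone of the aromatic amino acid hydroxylases, was picked after its values were seen. It was at 8.21, 5.81 and 6.95 RPKM in uninfused WT and 5.26, 6.88 and 7.57 RPKM in uninfused Gcg-/- libraries. With 150 µg/d it was at 24.5, 9.999, 19.6 and 25.0 RPKM in Gcg-/- libraries, all above the uninfused ones, with a log2 difference of 1.39 (SE 0.40, limma adjusted p = 0.0664). In WT at 150 µg/d it was at 12.95, 5.99, 36.2 and 11.5 RPKM. Its highest value, 36.2, was in library 17, the library in which Tat, Hpd and Hgd were the lowest of that group. Among 9 tested female-biased liver genes, 1 rose at 150 µg/d in both genotypes. It was Cyp17a1, a steroid hydroxylase and lyase, at 2.64 ± 0.922 and 29.5 ± 11.4 RPKM in WT (SD, n = 3 and n = 4, limma adjusted p = 0.0386) and at 0.662 ± 0.540 and 14.5 ± 12.4 RPKM in Gcg-/- liver (limma adjusted p = 0.0165). The calls ended without library 1, 2, 3, 15, 16 or 18 in WT (adjusted p up to 0.164) and without 4, 5, 21 or 22 in Gcg-/- liver (up to 0.069).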
